A study of Mus musculus with 8 samples.

Results

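The Rab GTPases of bone marrow-derived Mϕ (BMDMs) were followed across resting, inflammatory and efferocytic conditions. Genes were taken as members if their Ensembl identifier belongs to a protein-coding mouse gene of GENCODE whose symbol is Rab, a number and at most a letter and a digit, and if their mean over the 8 samples was at least 10 normalized counts. Of 59 such genes in the annotation, all of which are listed among the 55359 genes of the table, 48 were members, out of 16309 genes in all with a mean of at least 10. The other 11 had a mean under 10 and none of them was at 0 in every sample. Just outside the limit were Rab27b (mean of 9.0 normalized counts), Rab3c (8.7) and Rab39b (8.1), and just inside it Rab4a (16.8), Rab3a (18.1) and Rab38 (22.0).

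RNA came from BMDMs of adult wildtype C57BL/6 mice of both sexes, grown with M-CSF and GM-CSF, in 4 groups with n = 2 samples each. Ctrl cells were naïve and unstimulated, and LPS cells were naïve and received 100 ng/mL LPS with 100 U/mL IFNγ for 6 h. Eff cells were efferocytic, i.e., they had shared a culture for 16 h with apoptotic NIH-3T3 CA cells (5 per Mϕ), and LPSEff cells received the same LPS/IFNγ stimulus after this co-culture. The NIH-3T3 CA line is a modified murine fibroblast line in which a dimerizer drug triggers an engineered caspase-8, and the drug was present during co-culture. CD45+ cells were purified magnetically before lysis. Nothing in the labels says that the 2 samples of a group came from separate mice or cultures, so that p-values measure only the spread between these samples, which may be technical.

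Rab proteins are small GTPases that mark the membranes of the cell. In the GTP-bound form they sit on a given compartment through a lipid anchor and recruit effectors that move, tether and fuse vesicles. Exchange factors load them with GTP, and GTPase-activating proteins end the signal. In Mϕ they guide ingested particles from the early phagosome to the lysosome, deliver receptors and cytokines to the surface, and recycle membrane.

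Promoter windows were compared to show what the members that moved together share in sequence. RefSeq holds a window for 39 of the 48 members (250 bases before the transcription start and 50 after, GRCm38.p6), and 27025 genes have a window in all. Each window was searched on both strands for the interferon-stimulated response element (GAAA repeated with 2 bases between), the NF-κB motif, and the CLEAR motif bound by TFEB and its relatives (TCACGTGA, which overlaps the shorter E-box). The interferon element was found in 1 of the 39 windows (Rab19), against 3.99% of all genes, and the NF-κB motif in 2 (Rab15 and Rab28), against 5.14%. CLEAR was found in 3 (Rab5a, Rab21 and Rab24), against 1.13% (304 genes). Neither of the first 2 motifs lay in the 12 windows of members called higher with LPS/IFNγ (described next), which says only that these letters are not in these windows.

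The 3 windows with CLEAR are given because this is the motif whose members were all called with LPS/IFNγ in at least 1 contrast, Rab5a and Rab21 as higher and Rab24 as lower. This choice was made with the calls known, and a link between motif and call was not tested. The call of Rab24 was lost under several settings, which are given later. Rab20 is given as the member with the highest fold change in naïve Mϕ, with none of these 3 motifs. Capitals mark the motif. Each sequence runs 5′ to 3′ on the gene's strand, ends at most 30 bases after the annotated start, and was found at exactly 1 place of its chromosome in GRCm39 (Rab5a chr17:53786012-53786270 on the plus strand, Rab21 chr10:115151492-115151746, Rab24 chr13:55469764-55470043 and Rab20 chr8:11528681-11528890 on the minus strand). The motif begins 96 bases before the RefSeq start of Rab5a, 31 before that of Rab21, and 1 base after that of Rab24. Of the printed bases, 64.1%, 63.1%, 69.3% and 65.2% were G or C in the same order of genes.
Rab5a: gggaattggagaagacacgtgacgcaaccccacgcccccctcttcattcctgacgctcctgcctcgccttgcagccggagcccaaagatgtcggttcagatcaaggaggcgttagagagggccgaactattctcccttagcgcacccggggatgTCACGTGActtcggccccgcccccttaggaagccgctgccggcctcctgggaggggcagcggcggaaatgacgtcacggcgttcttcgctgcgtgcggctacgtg
Rab21: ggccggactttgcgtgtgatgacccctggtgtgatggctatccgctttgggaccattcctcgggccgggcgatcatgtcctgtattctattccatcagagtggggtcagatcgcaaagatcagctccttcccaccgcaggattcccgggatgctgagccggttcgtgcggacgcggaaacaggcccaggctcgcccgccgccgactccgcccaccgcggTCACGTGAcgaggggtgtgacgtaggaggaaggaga
Rab24: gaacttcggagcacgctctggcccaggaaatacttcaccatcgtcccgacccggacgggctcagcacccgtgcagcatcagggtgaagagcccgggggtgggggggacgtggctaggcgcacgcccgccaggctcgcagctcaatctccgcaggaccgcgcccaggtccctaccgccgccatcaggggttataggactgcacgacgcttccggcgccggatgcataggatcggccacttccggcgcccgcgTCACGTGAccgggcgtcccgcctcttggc
Rab20: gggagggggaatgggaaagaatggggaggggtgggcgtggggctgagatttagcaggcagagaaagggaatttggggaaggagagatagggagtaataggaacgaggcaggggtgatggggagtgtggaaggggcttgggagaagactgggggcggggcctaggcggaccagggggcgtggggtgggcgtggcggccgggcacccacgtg

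The values deposited are normalized counts, i.e., reads divided by a size factor per sample, and the reads recovered from them numbered between 3481288 and 12020918 per sample. A floor of 3 reads equals between 1.73 and 5.71 normalized counts, for counting error only. The normalized counts of all genes summed to between 6587737 and 6951788 in the 4 unstimulated samples and to between 8470249 and 9489294 in the 4 stimulated ones. All 10 Mϕ markers were present, with a sum of 108856 to 164148 normalized counts over the samples, of which Lyz2 held the most. The sum of 7 lymphocyte markers was 6.35 to 28.5. Fold changes are differences of log2(normalized count + 1), which understates changes of low genes, and are given with the standard error (SE) of limma. A gene was called at an adjusted p (Benjamini-Hochberg over all 16309 genes) under 0.05. In sentences with 2 values a group, the first is replicate 1.

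Summed over the members, Rab transcripts held 22109 and 23719 normalized counts in Ctrl, against 30177 and 38762 in LPS, and 23447 and 24666 in Eff, against 31937 and 34568 in LPSEff. This was between 0.334% and 0.359% of all normalized counts without stimulation and between 0.356% and 0.408% with it, so that the shares overlapped while the sums did not. Levels of different genes can be compared only per length, here as normalized counts per kb of exon (mean of a group). In Ctrl, Rab1b had the highest level per kb (469), ahead of Rab8b (415) and Rab5c (414). The samples of Rab1b (498 and 441) lay above those of the other 2 genes, which overlapped. In LPS, Rab8b (1190) and Rab10 (759) ranked first, with samples from 822 to 1558 and from 683 to 835 that overlapped. In LPSEff, Rab10 (941) and Rab8b (830) exchanged places, again with overlapping samples. In Eff, Rab5c (463), Rab1b (455) and Rab8b (443) overlapped. The lowest level per kb was that of Rab38 in Ctrl (1.85) and in Eff (0.490), of Rab4a in LPS (1.94), and of Rab6b in LPSEff (1.99).

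**Figure D1:**
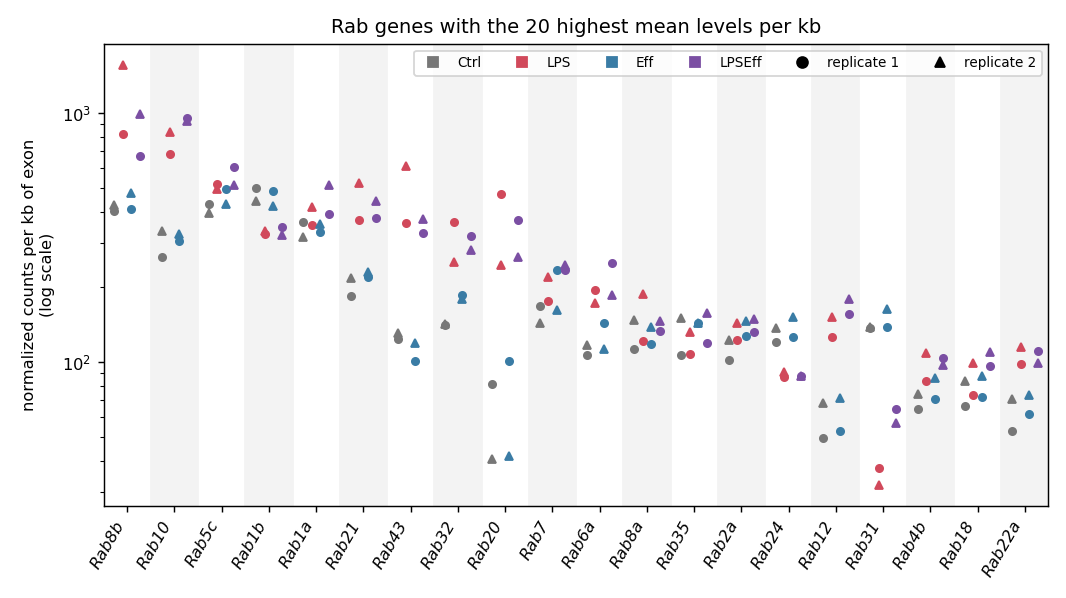
Level of the 20 members with the highest mean, in normalized counts per kb of exon (log axis), with 1 point per sample, colour for the group, and circles and triangles for replicates 1 and 2. Rab8b in LPS reached 822 and 1558 per kb against 402 and 427 in Ctrl, while Rab31 lay lower in all stimulated samples.

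The first question was how the inflammatory stimulus changed the Rab repertoire of naïve Mϕ (LPS vs Ctrl). Of the 48 members, 17 were called (13 higher, 4 lower), against a background of 24.0% of all genes tested (12.4% higher, 11.6% lower). Among the risers were the phagosomal Rab20, the endosomal Rab5a and Rab21, the surface-delivery Rabs Rab8b and Rab10 and the Golgi Rab43. The members that fell were Rab31, Rab7b, Rab15 and Rab3d. The median fold change of the members was 0.19 on the log2 scale and that of all genes -0.01. In efferocytic Mϕ (LPSEff vs Eff), 15 members were called (10 higher, 5 lower), against 19.7% of all genes (10.7% higher, 8.95% lower), with a median of 0.27 against 0.01. These contrasts share no sample, but they share the fit and its estimate of the spread of a gene, so that their calls are not independent. The share of calls common to both over all genes was not counted. Of the calls, 14 were common to both, which is 14 of 17 in naïve and 14 of 15 in efferocytic Mϕ, and all 14 had the same direction. Rab8b, Rab22a and Rab29 were called in naïve Mϕ and Rab24 in efferocytic Mϕ. The difference between both effects was tested as an interaction, which reached an adjusted p under 0.05 for 0 members in limma, edgeR and DESeq2 (unadjusted p under 0.05 for 1 member in limma, Rab31), and for 0.0% of all genes in limma.

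Values of replicates 1 shifted jointly against those of replicates 2 across the groups, and a second fit held the number constant (replicate block). With this block, 25 members were called in naïve Mϕ (17 higher, 8 lower, against 41.2% of all genes, 20.5% higher and 20.7% lower) and 23 in efferocytic Mϕ (14 higher, 9 lower, against 37.0% of all genes, 19.0% being higher), including all calls without it. Both samples of LPS lay above both of Ctrl for 21 members and below for 10, where 59.3% of all genes did not overlap (28.4% higher, 30.9% lower). Between LPSEff and Eff the counts were 23 and 12, where 59.9% of all genes did not overlap (29.5% higher, 30.4% lower). In bulk RNA, fewer cells of a type and less RNA per cell cannot be told apart. When totals were made equal between samples, the median of all genes moved to -0.40 and -0.44 and that of the members to -0.21 and -0.17. The share of all genes called with equal totals was not counted. The calls of members were then 18 (9 higher, 9 lower) in naïve and 19 (7 higher, 12 lower) in efferocytic Mϕ. Of these, 13 and 12 were among the calls given first. Those lost were Rab6a (adjusted p = 0.337), Rab22a (0.139), Rab29 (0.0728) and Rab32 (0.0507) in naïve Mϕ, and Rab6a (0.337), Rab32 (0.420) and Rab21 (0.0901) in efferocytic Mϕ.

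**Figure D2:**
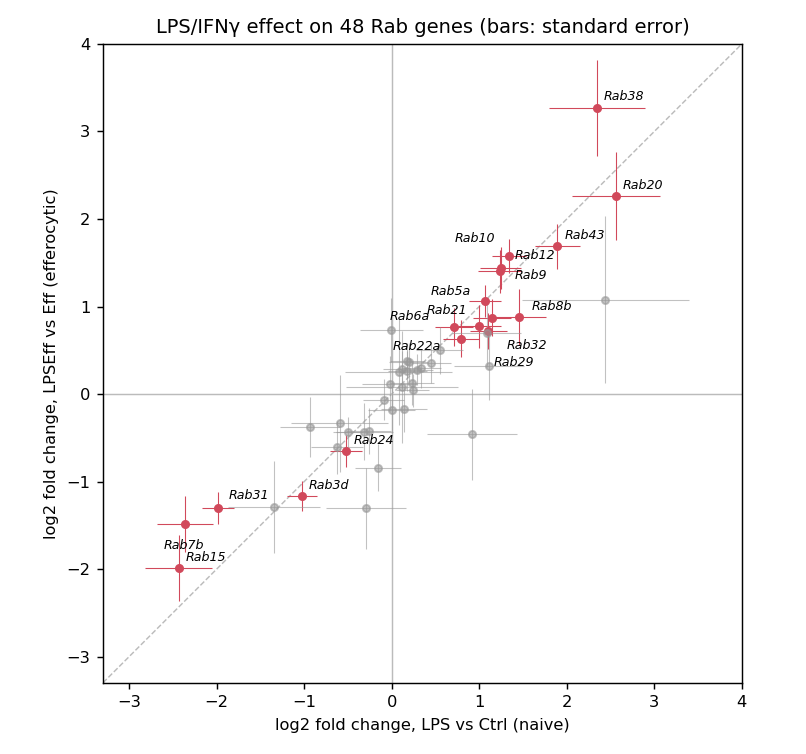
Log2 fold change with LPS/IFNγ in naïve (x axis) and efferocytic Mϕ (y axis) for the 48 members, with bars for the SE and a dashed line of equal change. The 18 members called in either contrast are red and named, and lie from -2.44 (Rab15) to 2.56 (Rab20) in naïve Mϕ.

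Early endosome Rabs. Of 6 members, 4 were called in naïve Mϕ (3 higher, 1 lower) and 3 in efferocytic Mϕ (2 higher, 1 lower, and 1 more higher with the block). Among all genes, 24.0% and 19.7% were called without the block, and 41.2% and 37.0% with it. Rab5a, which drives fusion of early endosomes and the first steps of phagosome maturation, held 173 and 185 normalized counts in Ctrl, against 351 and 404 in LPS, and 201 and 189 in Eff, against 423 and 395 in LPSEff. All 4 stimulated samples lay above all unstimulated ones. The rise was 2.10-fold in naïve (log2 1.07, SE 0.18, adjusted p = 0.00455) and 2.09-fold in efferocytic Mϕ (log2 1.06, SE 0.18, adjusted p = 0.0054), and its promoter carries the CLEAR motif given earlier. Rab21, known for moving integrins through early endosomes, went from 944 and 1113 in Ctrl to 1913 and 2692 in LPS, and from 1119.9 and 1176 in Eff to 1948 and 2272 in LPSEff. It rose 2.21-fold (log2 1.15, SE 0.21, adjusted p = 0.00654) and 1.83-fold (log2 0.87, SE 0.21, adjusted p = 0.0231), with no overlap of stimulated and unstimulated samples. The call of Rab21 in efferocytic Mϕ was lost in limma with quantile normalization (adjusted p = 0.0735) and with equal totals (0.0901). Rab22a, which shapes early and recycling endosomes, held 524 and 707 in Ctrl, against 976 and 1137 in LPS, and 616 and 733 in Eff, against 1101 and 985 in LPSEff. Its rise was called in naïve Mϕ (log2 0.79, SE 0.21, adjusted p = 0.0281), and in efferocytic Mϕ with the block (log2 0.63, SE 0.21, adjusted p = 0.0711 without and 0.00913 with it). In naïve Mϕ the call was lost in limma with all genes above 0 (adjusted p = 0.0572) or with the compared groups alone (0.0714).

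Rab31, the closest relative of Rab22a and a carrier between the trans-Golgi network and endosomes, changed in the opposite direction. It held 876 and 882 normalized counts in Ctrl, against 239 and 205 in LPS, and 882 and 1038 in Eff, against 415 and 363 in LPSEff. The stimulated samples lay below all others, and the 2 LPS samples below the 2 LPSEff samples. Rab31 fell 3.96-fold in naïve (log2 -1.98, SE 0.18, adjusted p = 0.00027) and 2.46-fold in efferocytic Mϕ (log2 -1.30, SE 0.18, adjusted p = 0.00218), and had the smallest adjusted p of all members in naïve Mϕ without the block. The other 2 members, Rab5b and Rab5c, did not pass the test in either contrast. Rab5b held 263 and 298 in Ctrl and 260.0 and 354 in LPS (log2 0.12, SE 0.21). Rab5c held 2363 and 2161 in Ctrl and 2834 and 2692 in LPS (log2 0.29, SE 0.18).

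Phagosome and lysosome-related organelle Rabs. Of 4 members, 3 were called in both contrasts, all higher, beside 24.0% and 19.7% of all genes called. Rab20, a Rab of maturing phagosomes, held 194 and 97.2 normalized counts in Ctrl, against 1133 and 587 in LPS, and 240.1 and 100.2 in Eff, against 888 and 631 in LPSEff. Within each group replicate 1 was the higher, and each stimulated sample exceeded all unstimulated ones. The rise was 5.90-fold in naïve (log2 2.56, SE 0.50, adjusted p = 0.00813) and 4.80-fold in efferocytic Mϕ (log2 2.26, SE 0.50, adjusted p = 0.0156). Rab32 and Rab38 act together in sorting cargo to melanosomes and other lysosome-related organelles. Rab32 went from 550.3 and 557 in Ctrl to 1434 and 989 in LPS (log2 1.10, SE 0.21, adjusted p = 0.00712), and from 726 and 704 in Eff to 1262 and 1103 in LPSEff (log2 0.72, SE 0.21, adjusted p = 0.0453). The call of Rab32 in efferocytic Mϕ was lost in edgeR (adjusted p = 0.0528), with equal totals (0.420), with quantile normalization (0.188), with all genes above 0 (0.103) and on leaving out any of 6 samples. Rab38 was near the floor without stimulation, with 13.3 and 4.63 in Ctrl (7 and 8 reads) and 2.63 and 2.12 in Eff (3 reads each), against 46.6 and 42.7 in LPS and 26.9 and 36.8 in LPSEff. It was called in both contrasts (adjusted p = 0.0174 and 0.00484). From the pooled reads, the ratio of LPS to Ctrl was 6.67 (exact 95% interval 3.81 to 12.5) and that of LPSEff to Eff 13.1 (5.69 to 37.0), intervals that cover counting error only. Rab44, a large Rab of secretory granules, held 93.3 and 103 in Ctrl, against 95.7 and 80.2 in LPS, and 134 and 98.8 in Eff, against 71.3 and 57.1 in LPSEff. It was called lower in efferocytic Mϕ only with the block (log2 -0.84, SE 0.26, adjusted p = 0.0593 without and 0.012 with it).

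Late endosome, lysosome and autophagosome Rabs. Of 6 members, 4 were called in each contrast without the block and 5 with it. The shares of all genes were 24.0% and 19.7% without the block and 41.2% and 37.0% with it. Rab9, which returns mannose 6-phosphate receptors from late endosomes to the Golgi, held 76.2 and 75.2 normalized counts in Ctrl, against 160.4 and 201 in LPS, and 45.6 and 58.6 in Eff, against 147 and 129 in LPSEff. The stimulated samples did not overlap with the others (log2 1.24 and 1.40, SE 0.25 for both, adjusted p = 0.00875 and 0.00599 in naïve and efferocytic Mϕ). Rab12, a regulator of transferrin receptor turnover and a substrate of the kinase LRRK2, went from 272 and 377 to 692 and 835 in naïve Mϕ (log2 1.24, SE 0.24, adjusted p = 0.00734), and from 291 and 392 to 857 and 981 in efferocytic Mϕ (log2 1.44, SE 0.24, adjusted p = 0.00452). Rab29, which binds LRRK2 at the Golgi and lysosomes, held 187 and 181 in Ctrl, against 351 and 388 in LPS, and 128 and 206 in Eff, against 268 and 289 in LPSEff. Its rise was called in naïve Mϕ (log2 1.00, SE 0.25, adjusted p = 0.0216) and in efferocytic Mϕ with the block (log2 0.77, SE 0.25, adjusted p = 0.0635 without and 0.00911 with it).

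The members of this class that fell were Rab7b and Rab24. Rab7b, known for transport from late endosomes to the trans-Golgi network and for lowering TLR4 signalling, held 638 and 563 normalized counts in Ctrl, against 89.2 and 150.3 in LPS, and 456 and 574 in Eff, against 142 and 235 in LPSEff. It fell 5.14-fold in naïve (log2 -2.36, SE 0.32, adjusted p = 0.00157) and 2.79-fold in efferocytic Mϕ (log2 -1.48, SE 0.32, adjusted p = 0.0143). Rab24, linked to autophagosomes, held 417 and 479 in Ctrl, against 304 and 318 in LPS, and 439.9 and 526 in Eff, against 306 and 306 in LPSEff. Its stimulated samples were lower without overlap (log2 -0.65, SE 0.18, adjusted p = 0.0401 in efferocytic Mϕ, and log2 -0.52, SE 0.18, adjusted p = 0.076 without and 0.0142 with the block in naïve Mϕ). The call of Rab24 in efferocytic Mϕ was lost in limma with all genes above 0 (adjusted p = 0.133) and with the compared groups alone (0.0712). It was also lost on leaving out any of 6 samples. Rab7, the Rab that takes late phagosomes to lysosomes, held 1061 and 904 in Ctrl and 1109.7 and 1384 in LPS, and passed the test in neither contrast (log2 0.34, SE 0.23, in naïve Mϕ).

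Exocytosis and plasma membrane delivery Rabs. Of 10 members, 3 were called in naïve Mϕ (2 higher, 1 lower) and 2 in efferocytic Mϕ (1 higher, 1 lower). These are 30% and 20% of the class, beside 24.0% and 19.7% of all genes. Rab10, which carries TLR4 and glucose transporters to the surface, held 1034 and 1308 normalized counts in Ctrl, against 2668 and 3263 in LPS, and 1191 and 1278 in Eff, against 3716 and 3639 in LPSEff. It rose 2.54-fold in naïve (log2 1.34, SE 0.19, adjusted p = 0.00199) and 2.98-fold in efferocytic Mϕ (log2 1.57, SE 0.19, adjusted p = 0.00106), the smallest adjusted p of the members in efferocytic Mϕ without the block. Rab8b, a Rab of polarised secretion, held 2047 and 2173 in Ctrl, against 4184 and 7931 in LPS, and 2097 and 2416 in Eff, against 3413 and 5041 in LPSEff. The rise was called in naïve Mϕ (2.73-fold, log2 1.45, SE 0.32, adjusted p = 0.0128) and in efferocytic Mϕ with the block (1.84-fold, log2 0.88, SE 0.32, adjusted p = 0.0904 without and 0.00424 with it). Replicate 2 was the higher in every group. The call of Rab8b in naïve Mϕ was lost in limma with quantile normalization (adjusted p = 0.0662). Rab3d, a Rab of secretory granules, fell from 676 and 671 in Ctrl to 338 and 322 in LPS (log2 -1.03, SE 0.17, adjusted p = 0.004), and from 656 and 648 in Eff to 313 and 268 in LPSEff (log2 -1.17, SE 0.17, adjusted p = 0.0026).

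With the block, 4 more members of this class were called in 1 or both contrasts, where 41.2% and 37.0% of all genes were called. Rab37, of secretory vesicles, held 45.7 and 106 normalized counts in Ctrl, against 22.0 and 32.5 in LPS, and 29.8 and 67.7 in Eff, against 16.6 and 19.0 in LPSEff. It was lower with stimulation in both (log2 -1.35 and -1.29, SE 0.52, adjusted p with the block = 0.00851 and 0.0118, and 0.103 and 0.128 without). Rab40c, which has a SOCS box and joins ubiquitin ligases, held 204 and 141 in Ctrl, against 111 and 70.1 in LPS, and 192 and 115 in Eff, against 120.3 and 109 in LPSEff (in naïve Mϕ log2 -0.93, SE 0.34, adjusted p = 0.0878 without and 0.00406 with the block). Rab26, of secretory granules, held 24.8 and 39.3 in Ctrl, against 71.1 and 66.0 in LPS, and 38.6 and 38.8 in Eff, against 68.9 and 34.3 in LPSEff (in naïve Mϕ log2 1.11, SE 0.40, adjusted p = 0.08 without and 0.0302 with the block), and 17.8% of its exon bases overlap Traf7 on the same strand, so that its value is uncertain. Rab3a, the Rab of regulated vesicle release in neurons, held 15.2 and 22.0 in Ctrl, against 14.2 and 15.2 in LPS, and 20.2 and 36.7 in Eff, against 9.50 and 11.4 in LPSEff (in efferocytic Mϕ log2 -1.31, SE 0.46, adjusted p = 0.0854 without and 0.0259 with the block). Rab8a, Rab13 and Rab27a were not called in either contrast, and Rab8a held 735 and 961 in Ctrl and 794 and 1231 in LPS (log2 0.23, SE 0.25).

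Recycling Rabs. Of 7 members, 1 (14.3%) was called in each contrast without the block, beside 24.0% and 19.7% of all genes. Rab15, which acts at recycling endosomes, held 335 and 599.7 normalized counts in Ctrl, against 78.9 and 85.3 in LPS, and 286 and 502 in Eff, against 75.2 and 119 in LPSEff. It fell 5.41-fold in naïve (log2 -2.44, SE 0.38, adjusted p = 0.00289) and 3.96-fold in efferocytic Mϕ (log2 -1.99, SE 0.38, adjusted p = 0.0083). Rab11a, the main Rab of the recycling endosome, held 503 and 659.8 in Ctrl, against 731 and 969.8 in LPS, and 538 and 754 in Eff, against 758 and 1069.9 in LPSEff. Rab11a was called with the block only (log2 0.55 and 0.50, SE 0.27, adjusted p = 0.192 and 0.251 without and 0.0061 and 0.0112 with it). Rab4a, Rab4b, Rab11b, Rab14 and Rab35 were not called in either fit, with log2 fold changes between -0.59 and 0.45. Exon bases of Rab4b overlap Gm21983 and Mir3101 on the same strand (68.5%), so that its value is uncertain.

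Secretory pathway and Golgi Rabs. Of 13 members, 2 (15.4%) were called in both contrasts, both higher, beside 24.0% and 19.7% of all genes called. Rab43, a Rab of the route from the endoplasmic reticulum through the Golgi that also serves cross-presentation in dendritic cells, held 722 and 766 normalized counts in Ctrl, against 2122 and 3597 in LPS, and 589 and 695 in Eff, against 1933 and 2199 in LPSEff. It rose 3.71-fold in naïve (log2 1.89, SE 0.26, adjusted p = 0.00151) and 3.22-fold in efferocytic Mϕ (log2 1.69, SE 0.26, adjusted p = 0.00304). Of its exon bases, 71.1% overlap the gene Gm45140 on the same strand, which had nearly the same values (802 and 829 in Ctrl, 1963 and 3353 in LPS), so that the reads of both cannot be told apart. Rab6a, of retrograde transport to and through the Golgi, went from 499 and 549 to 911 and 809 in naïve Mϕ (log2 0.71, SE 0.21, adjusted p = 0.0436), and from 674 and 530.0 to 1177 and 877 in efferocytic Mϕ (log2 0.76, SE 0.21, adjusted p = 0.0391). Both calls of Rab6a were lost with equal totals (adjusted p = 0.337 for each) and on leaving out any of 6 samples in naïve and any of 5 in efferocytic Mϕ.

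Rab1b, which starts transport from the endoplasmic reticulum to the Golgi, held 1521 and 1349 normalized counts in Ctrl, against 993 and 1029 in LPS, and 1489 and 1295 in Eff, against 1066 and 991 in LPSEff. Stimulated samples were lower without overlap, and the fall was called with the block (log2 -0.50 and -0.43, SE 0.17, adjusted p = 0.0674 and 0.117 without and 0.0105 and 0.0239 with it). Rab2b, also of transport between the endoplasmic reticulum and the Golgi, held 30.5 and 70.6 in Ctrl, against 93.1 and 107 in LPS, and 46.4 and 62.8 in Eff, against 91.8 and 85.0 in LPSEff (in naïve Mϕ log2 1.08, SE 0.39, adjusted p = 0.0836 without and 0.0147 with the block). Rab30, a Golgi Rab, held 5.71 and 52.6 in Ctrl, of which the first rests on 3 reads, against 56.9 and 182 in LPS, and 14.9 and 24.7 in Eff, against 27.7 and 62.2 in LPSEff (in naïve Mϕ log2 2.44, SE 0.95, adjusted p = 0.104 without and 0.00186 with the block). Both replicates of Rab30 rose, but the lower LPS sample was close to the higher Ctrl sample. The other 8 members were not called in either contrast, among them Rab1a with 1649 and 1431 in Ctrl and 1602 and 1884 in LPS (log2 0.18, SE 0.20). Rab23 and Rab28, kept apart as other Rabs, were not called either (0 of 2).

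**Figure D3:**
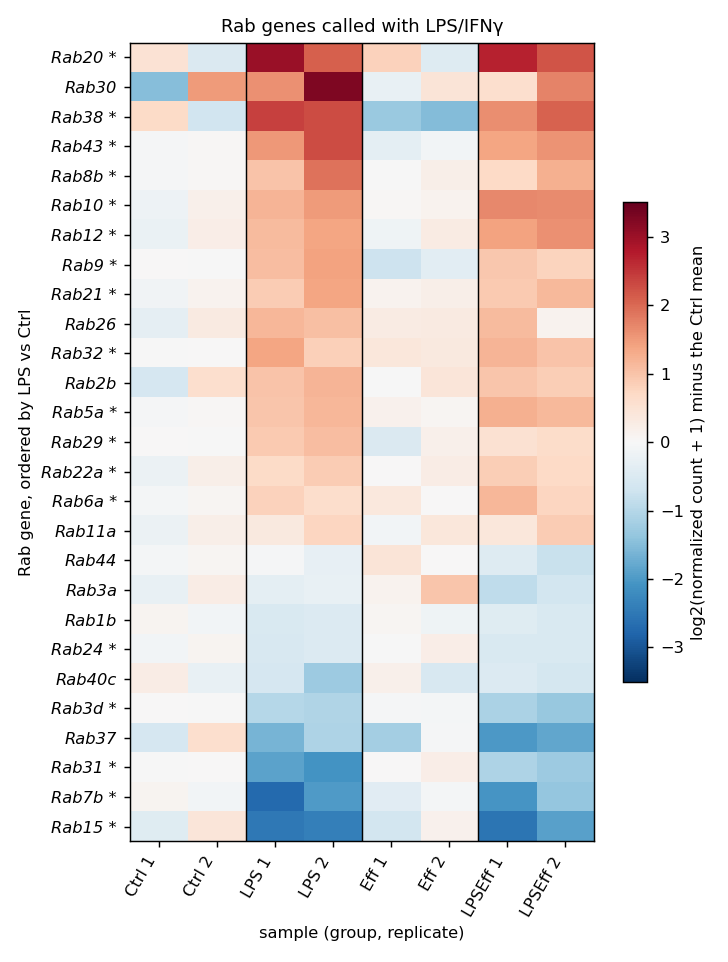
Difference of log2(normalized count + 1) from the Ctrl mean in each of the 8 samples (columns) for the 27 members called with LPS/IFNγ with or without the replicate block (rows, ordered by LPS vs Ctrl). An asterisk marks the 18 called without the block, which reached up to 2.56 higher (Rab20) and 2.44 lower (Rab15, log2 -2.44) on average in naïve Mϕ.

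Close relatives were set side by side, since Rab subfamilies share effectors. Per kb of exon, Rab31 lay above Rab22a in Ctrl (means of 137 and 61.8) and Eff (150.1 and 67.7) and below it in LPS (34.7 and 106) and LPSEff (60.8 and 105), with no overlap of samples. Rab1b lay above Rab1a in Ctrl (469 and 341) and Eff (455 and 345) and below it in LPS (331 and 386) and LPSEff (336 and 452), also without overlap. Rab5b lay above Rab5a in Ctrl (58.6 and 25.9) and Eff (45.9 and 28.1), while their samples overlapped in LPS (64.2 and 54.5) and LPSEff (55.9 and 59.0). Within a sample, the ratio of normalized counts of a pair, which is not corrected for length, shows only how the pair shifted between samples. The ratio of Rab22a to Rab31 was 0.598 and 0.801 in Ctrl, against 4.08 and 5.54 in LPS, and 0.698 and 0.706 in Eff, against 2.65 and 2.71 in LPSEff. That of Rab7 to Rab7b went from 1.66 and 1.60 in Ctrl to 12.4 and 9.21 in LPS, and that of Rab8b to Rab8a from 2.78 and 2.26 to 5.27 and 6.44. Of 13 pairs, 8 had a higher ratio in both stimulated samples than in both unstimulated ones, in naïve and in efferocytic Mϕ alike. For 2 pairs the ratio was lower in both (Rab32 to Rab38 and Rab2a to Rab2b). The direction depends on which gene is put first, and the pairs and their order were set by hand. The share among other pairs of genes was not counted. Rab32 to Rab38 went from 41.3 and 120.5 in Ctrl to 30.8 and 23.2 in LPS. The differences between relatives were not tested.

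**Figure D4:**
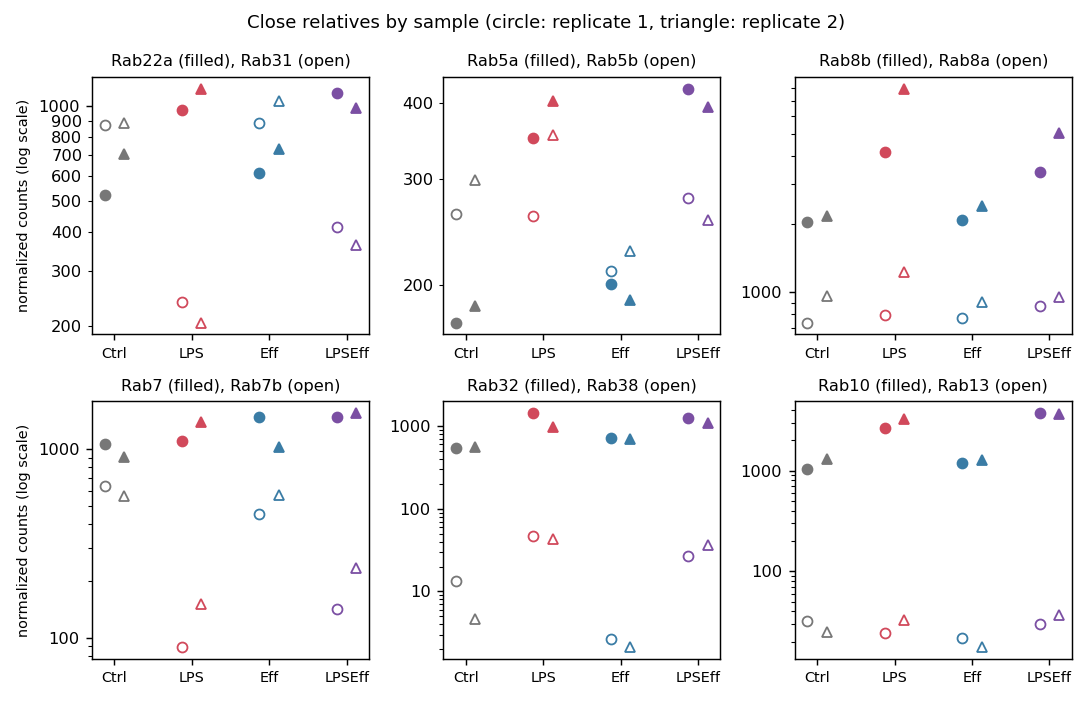
Normalized counts (log axes, which differ between panels) by sample (x axis, by group) for 6 pairs of Rabs, with filled and open symbols for the first and second gene of a panel. Counts are not corrected for length. The ratio of Rab22a to Rab31 goes from 0.598 and 0.801 in Ctrl to 4.08 and 5.54 in LPS.

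The second question was whether the uptake of apoptotic cells changed Rab transcripts. In Eff vs Ctrl, 0 of 48 members were called by limma, edgeR or DESeq2, with or without the block in limma and edgeR, against a background of 0.251% of all genes (0.215% higher, 0.0368% lower), or 2.67% with the block (1.7% higher, 0.975% lower). In LPSEff vs LPS, 0 were called without the block by the same tools, against 0.773% of all genes (0.73% higher, 0.0429% lower). Samples of Eff did not overlap with those of Ctrl for 13 members (5 higher, 8 lower), against 34.1% of all genes, nor those of LPSEff with LPS for 16 (6 higher, 10 lower), against 36.3%. An unadjusted p under 0.05 was found for 1 member in Eff vs Ctrl (Rab38) and for 2 in LPSEff vs LPS (Rab31 and Rab34). Log2 fold changes lay between -1.42 and 0.63 (median 0.10) and between -1.27 and 0.81 (median -0.02), and 40 and 39 of the 48 lay within 0.5 of 0. The SE had a median of 0.26 and reached 0.95.

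Rab31 was the member with the smallest p in LPSEff vs LPS. Its LPS samples (239 and 205 normalized counts) lay below the LPSEff samples (415 and 363), a difference of 0.81 on the log2 scale (SE 0.18, unadjusted p = 0.00225, adjusted p = 0.13). With the block it was the 1 member called by limma (adjusted p = 0.0131, against 6.97% of all genes, 4.32% higher and 2.65% lower). Without stimulation Rab31 held 876 and 882 in Ctrl and 882 and 1038 in Eff (log2 0.12, SE 0.18, adjusted p = 0.999). The interaction of Rab31, i.e., the smaller fall with LPS/IFNγ in efferocytic Mϕ, was 0.68 (SE 0.26, unadjusted p = 0.03, adjusted p = 1.00), and its adjusted p was 0.589 with the block.

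Rab34, which positions lysosomes and takes part in macropinocytosis and ciliogenesis, was higher in both efferocytic groups without passing the test. It held 64.7 and 59.6 normalized counts in Ctrl, against 80.6 and 116 in Eff, and 76.3 and 48.7 in LPS, against 117 and 93.9 in LPSEff (log2 0.63, SE 0.31, adjusted p = 0.917, and log2 0.77, SE 0.31, adjusted p = 0.446). Rab38 held 7 and 8 reads in the Ctrl samples and 3 reads in each Eff sample (log2 -1.42, SE 0.55, unadjusted p = 0.0323, adjusted p = 0.725). Rab27a, which docks exosome and granule membranes for release, held 135 and 272 in Ctrl, against 85.9 and 166 in Eff, and 118 and 369 in LPS, against 82.3 and 194 in LPSEff. Each efferocytic sample lay below the naïve one of the same number, and the difference did not pass the limma test with the block (log2 -0.68 and -0.72, SE 0.64 without the block, adjusted p with it = 0.134 and 0.0663). In edgeR with the block, Rab27a (log2 -0.76, adjusted p = 0.0375) and Rab30 (log2 -1.32, adjusted p = 0.0499) were called lower in LPSEff vs LPS beside Rab31 (log2 0.81, adjusted p = 0.0161).

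Fibroblast markers moved with efferocytosis in the same samples. The sum of 14 such markers was 594 and 572 normalized counts in Ctrl, against 2336 and 4520 in Eff, and 4639 and 2293 in LPS, against 7514 and 6552 in LPSEff. Of the 14, 11 were higher in both Eff than in both Ctrl samples and 10 in both LPSEff than in both LPS samples. The same held for 16.3% and 19.3% of all genes. Col6a2, Col6a3 and Postn were at 0 in Ctrl replicate 1, the shallowest sample, and in no other sample, co-cultured or not. The values of Postn overlapped between Ctrl (0 and 15.6) and Eff (1.75 and 15.5). In LPS, 3620 and 1335 of the sum came from Lox. Their part in the values of Rab34, Rab31 and the other members was not tested. With LPS/IFNγ, 5 of 5 dendritic cell markers were higher in naïve Mϕ and 4 of 5 in efferocytic Mϕ (sums of 2036 and 2568 in Ctrl, against 8291 and 16024 in LPS, and 1309 and 1619 in Eff, against 6688 and 6483 in LPSEff, mostly Ccr7). The sum of 7 neutrophil markers was 643 to 2176, and 7 of 7 were higher with LPS/IFNγ in naïve Mϕ and 3 of 7 in efferocytic Mϕ. Of the 14 fibroblast markers, 7 and 8 were higher in the same contrasts. In these counts, higher means that both stimulated samples lay above both unstimulated ones, as for 28.4% and 29.5% of all genes. The part of these markers in the LPS/IFNγ effects was not tested either.

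**Figure D5:**
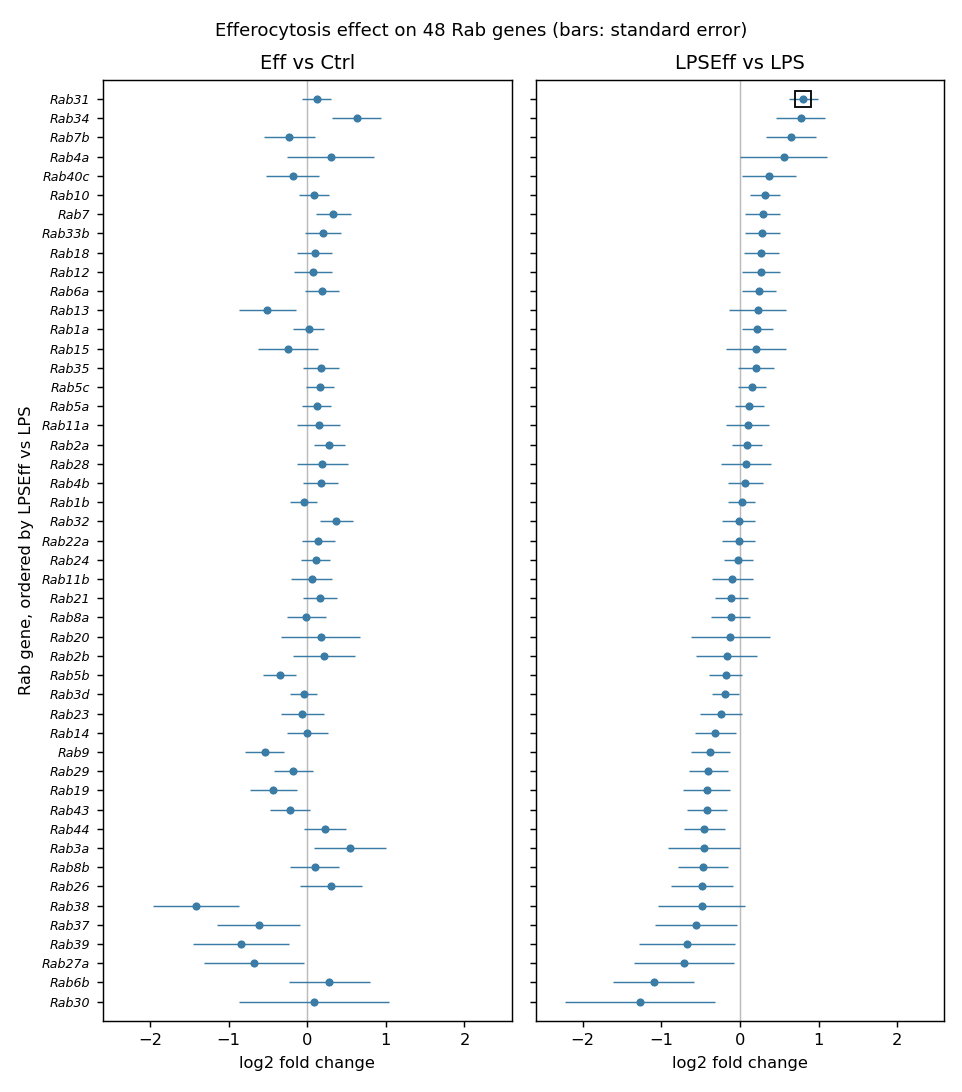
Log2 fold change with efferocytosis for the 48 members (rows, ordered by LPSEff vs LPS) without (left) and with LPS/IFNγ (right), with bars for the SE. A square marks Rab31 in LPSEff vs LPS (0.81, SE 0.18), the 1 member called there with the replicate block, and 40 members on the left and 39 on the right lie within 0.5 of 0.

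The genes that act on Rabs were followed from lists of exchange factors, GTPase-activating proteins, effectors and proteins of the prenylation cycle. Of 40 exchange factors, 12 were called in naïve Mϕ (7 higher, 5 lower) and 10 in efferocytic Mϕ (6 higher, 4 lower), or 20 and 16 with the block. The share called among all genes was 24.0% and 19.7% (41.2% and 37.0% with the block). Rab3il1, an exchange factor of Rab3 and Rab8 proteins, went from 596 and 477 normalized counts in Ctrl to 44.0 and 36.6 in LPS, and from 404 and 485 in Eff to 26.1 and 43.1 in LPSEff (log2 -3.70 and -3.68, SE 0.29, adjusted p = 0.000117 and 0.000111). Dennd2c (log2 -2.71 and -2.66) fell as well. Dennd3, an exchange factor of Rab12, rose from 409 and 574 to 1284 and 1824 in naïve and from 361 and 464 to 1429 and 1578 in efferocytic Mϕ (log2 1.66 and 1.87, SE 0.25, adjusted p = 0.0026 and 0.00167). Dennd5a (log2 1.45 and 1.43) and Rabgef1, which activates Rab5 (log2 1.33 and 1.68), were also called higher in both, and Rab3ip, an exchange factor of Rab8, in naïve Mϕ (41.9 and 67.7 in Ctrl, 131 and 179 in LPS, SE 0.34, adjusted p = 0.0144). Rabgef1 held 267 and 324 in Ctrl and 727 and 750.5 in LPS, and a link to the level of Rab5a was not tested.

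Rin1, another exchange factor of Rab5 proteins, was the 1 gene of the 4 lists called with efferocytosis without the block. It held 22.9 and 27.8 normalized counts in Ctrl, against 7.76 and 7.11 in LPS, and 60.5 and 128 in Eff, against 86.3 and 126 in LPSEff. Every co-cultured sample lay above every naïve one. The LPS values of Rin1 were near the floor, since 3 reads equal 3.88 and 3.05 normalized counts in these samples. In LPSEff vs LPS Rin1 was higher by 3.64 on the log2 scale (SE 0.42, adjusted p = 0.0151, against 0.773% of all genes called), and in Eff vs Ctrl by 1.76 (SE 0.42, adjusted p = 0.258 without and 0.0209 with the block). The call in LPSEff vs LPS was lost on leaving out any of 3 samples, and that of its fall in naïve Mϕ, given next, on leaving out any of 4. With LPS/IFNγ Rin1 fell in naïve Mϕ (log2 -1.64, SE 0.42, adjusted p = 0.0242) and differed by 0.24 (SE 0.42, adjusted p = 0.751) in efferocytic Mϕ, and the interaction did not pass the test (1.88, SE 0.59, adjusted p = 1.00). The fibroblast markers were higher in the same samples, and their part in the level of Rin1 was not tested.

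Of 35 GTPase-activating proteins tested, 11 were called in naïve Mϕ (5 higher, 6 lower) and 9 in efferocytic Mϕ (5 higher, 4 lower), or 22 and 18 with the block. These are 31.4% and 25.7% of the list without the block, beside the same 24.0% and 19.7% of all genes. Tbc1d17 rose from 786 and 822 normalized counts in Ctrl to 3588 and 7868 in LPS, and from 507 and 467 in Eff to 3245 and 3010.3 in LPSEff (log2 2.72 and 2.68, SE 0.32, adjusted p = 0.000835 and 0.000989). Tbc1d8 (log2 1.73 and 1.34) and Tbc1d9 (1.19 and 1.32) were higher too. Tbc1d2, which acts on Rab7, fell from 771 and 510.1 to 164 and 122 and from 946 and 553 to 179.7 and 164 (log2 -2.14 and -2.07, SE 0.31, adjusted p = 0.00218 and 0.00304), and Tbc1d16 (log2 -2.57 and -2.09) and Tbc1d31 (-1.42 and -1.16) fell with it.

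Of 43 effectors tested, 17 were called in naïve Mϕ (10 higher, 7 lower) and 11 in efferocytic Mϕ (7 higher, 4 lower), or 20 and 21 with the block. These are 39.5% and 25.6% of the list without the block, beside the same 24.0% and 19.7% of all genes. The largest rise was that of Rab11fip1, which links Rab11 to recycling endosomes, from 510.3 and 599 normalized counts in Ctrl to 7178 and 4613 in LPS, and from 414 and 512 in Eff to 6798 and 5099 in LPSEff (log2 3.38 and 3.67, SE 0.26, adjusted p = 0.000117 and 7.2e-05). Lrrk2, the kinase that Rab29 recruits and that phosphorylates Rab8, Rab10 and Rab12, rose from 324 and 615 to 1496 and 2137 and from 301 and 524 to 1251 and 1882 (log2 2.00 and 1.95, SE 0.39, adjusted p = 0.00789 and 0.0102). Rab10 and Rab12 were called higher in the same contrasts. Rab8b was called without the block in naïve Mϕ only, and Rab8a was called in neither contrast. A link between Lrrk2 and the levels of these Rabs was not tested. Optn, a Rab8 effector and autophagy receptor, was higher in both (log2 1.09 and 1.24). Plekhm1, which joins Rab7 to the fusion machinery of lysosomes, fell from 1657 and 1116 to 380.3 and 400.1 and from 1447 and 1143 to 619 and 442 (log2 -1.80 and -1.30, SE 0.26, adjusted p = 0.00192 and 0.00974), as did Rab11fip5 (-1.39 and -1.25). Of 8 genes of the prenylation cycle, Rabif fell in naïve Mϕ (log2 -0.82, SE 0.19, adjusted p = 0.0181). No member of these 3 lists was called with efferocytosis without the block (unadjusted p under 0.05 in Eff vs Ctrl and LPSEff vs LPS for 3 and 4 GTPase-activating proteins, 0 and 1 effectors, and 0 and 2 prenylation genes) in limma. With the block, 2 exchange factors were called in Eff vs Ctrl (Rin1 and Dennd2b), and 5 exchange factors, 4 GTPase-activating proteins and 2 effectors in LPSEff vs LPS, against 2.67% and 6.97% of all genes.

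Replicates differed in a shared way, which bears on the members with a wide spread. The difference between replicate 2 and replicate 1 over all groups, read from the fit with the block and chosen after the data had been seen, was called for 13 members (11 higher, 2 lower in replicate 2), against 23.5% of all genes. Rab27a was higher in replicate 2 in all 4 groups (log2 1.20, SE 0.15, adjusted p = 0.000651), and Rab30 likewise (log2 1.62, SE 0.33, adjusted p = 0.00775). Rab20 was lower in replicate 2 in all 4 groups (log2 -0.92, SE 0.13, adjusted p = 0.00139), as was Rab40c (log2 -0.52, SE 0.14, adjusted p = 0.0279). In all, 19 members were higher and 5 lower in replicate 2 in every group, a count that was not made over all genes.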

How the data were processed

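The authors depleted rRNA, made single-end libraries, trimmed adapters (cutadapt), removed residual rRNA reads (Bowtie2), mapped to mm39 (STAR) and counted reads per gene (HTSeq). Versions and annotation release are not given in the sources used here. The authors deposited a signal per gene, counts divided by a size factor per sample (DESeq2). In each of the 8 samples 100% of these values were whole multiples, within 0.01, of the worth of 1 read, and the size factors were 0.525 to 1.73. Of 55359 identifiers, 98.9% were named from GENCODE (vM39, GRCm39). Lengths are unions of exons. How reads on overlapping genes were counted affects the values of such genes, and the paper gives only default parameters for it.

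Members and lists were chosen with earlier results of these data known, and support nothing by themselves. The main test was limma (3.58.1, R 4.3.3), trend option, applied to log2(normalized count + 1) of 16309 genes whose mean was at least 10, with 4 group means and 4 residual degrees of freedom, tested on simulated data. The smallest p of an exact permutation test with 2 against 2 samples is 0.333 (two-sided). Across genes, differences between replicates of 2 groups had correlations between 0.404 and 0.595 in all 6 pairings of groups, so that the replicate block (3 residual degrees of freedom) is given where it changes a call. The numbers come from the sample names. Alternatives changed the pseudocount (0.5, 5), the filter (mean above 0, or 50 and more), the samples in the fit (the compared groups alone), equal totals, quantile normalization, edgeR (4.0.16) and DESeq2 (1.42.0) on the recovered reads, and leaving out each sample.

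Values in every sample are given for members called in any contrast with or without the block, and other members by counts and level. Of each regulator list, up to 3 called genes with the largest change per direction are named in a contrast. Members named for an unadjusted p, and Rab27a, were chosen after their values were seen. Protein sequences were not used here, and 1 gene of the prenylation list and 1 motif are not reported here.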

Additional observations from a re-analysis of the deposited data

How the results depend on the processing

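In the LPS/IFNγ contrasts, single genes were followed only if already called in the contrast with or without the block. Such genes are unlikely to change direction by this choice. None of them did so under any alternative, and pseudocounts of 0.5 and 5 changed none of their calls. The direction of the other members was not followed. Rabgef1 and Optn were followed in LPSEff vs Eff but not in LPS vs Ctrl. The replicate block gave 25 calls of 48 in LPS vs Ctrl, 23 in LPSEff vs Eff and 1 in LPSEff vs LPS, and edgeR with the block gave 26, 25 and 3 (Rab31, Rab27a and Rab30). It changed no call in Eff vs Ctrl (0) or in the interaction (0). Calls with edgeR were 16 and 16 and with DESeq2 18 and 18 in the 2 LPS/IFNγ contrasts, and with quantile normalization 18 and 14. The share of all genes called was counted only for limma without and with the block, not for the other alternatives. Without each sample in turn, 11 to 17 calls were left in LPS vs Ctrl (11 without Ctrl replicate 1, the shallowest sample) and 8 to 16 in LPSEff vs Eff (8 without LPSEff replicate 1 and 9 without Eff replicate 2), where the lone sample is assumed to vary like the other groups. Of the calls, 8 of 17 and 8 of 15 were kept without any 1 sample, and Rab10, Rab31, Rab3d, Rab43 and Rab5a were kept in both contrasts. Equal totals moved the median fold change of the members to -0.21 and -0.17. Depth limits the low members most, such as Rab38 with 3 reads in each Eff sample.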
